A study of Mus musculus with 30 samples.

Results

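A pair of mutant alleles of the mouse HoxD cluster was compared that differ by the mutation of 1 CTCF binding site (CBS), the fourth of a series numbered CBS1 to CBS5. The compared libraries were 2 CTCF and 2 RAD21 libraries labelled Del(CBS1-4) and 2 CTCF and 2 RAD21 libraries labelled Del(CBS1-3), which are 8 of the 30 libraries of the series. All peak entries on the autosomes, X and Y were used, 356344 of the 1350341 in the series, and each antibody was analysed separately. The material was whole trunk of B6CBAF1 embryos at E10.5, and ChIPmentation, chromatin immunoprecipitation in which Tn5 transposase adds the sequencing adapters on the beads, was the assay.

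Del(CBS1-4) embryos were homozygous for an allele with CBS1, CBS2, CBS3 and CBS4 mutated in cis, and Del(CBS1-3) embryos were homozygous for an allele with CBS1, CBS2 and CBS3 mutated in cis. Both groups therefore carried the first 3 mutations, CBS5 was left intact in both, and neither group had all 5 sites. The alleles Del(CBS1), Del(CBS2), Del(CBS1-2) and Del(CBS1-5) and wild-type (WT) littermates (3 CTCF and 4 RAD21 libraries) are given beside them where a position needs a background. Embryos were processed 1 by 1 and the labels give no litter or batch, so the replicates were taken as separate embryos. Trunk is a mixture of neural tube, somites, lateral plate and other tissues, so a site bound in fewer cells and a site bound less in each cell cannot be told apart. CTCF and RAD21 peaks do not report cell identity, and the labelled tissue was not checked against marker genes.

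CTCF is a zinc-finger protein that binds a long, directional motif and halts cohesin, the ring complex that extrudes chromatin loops. RAD21 is the kleisin subunit that closes the cohesin ring, so RAD21 peaks commonly lie on CTCF sites. In the trunk, Hoxd genes are switched on in the order in which they lie along the chromosome, from Hoxd1 towards Hoxd13, and the cluster is flanked by 2 regulatory landscapes, a telomeric one next to Hoxd1 and a centromeric one next to Evx2. The CTCF sites inside the cluster separate neighbouring genes from these landscapes.

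The labels give no coordinates for the mutated sites. Each name was placed at the CTCF position whose loss across the alleles matched it best. CBS3, CBS4 and CBS5 were matched by every CTCF library, while 2 libraries were off pattern at CBS1 and 3 at CBS2. The absence of CTCF at CBS4 in Del(CBS1-4) is therefore part of how CBS4 was found and is given as a description. RAD21 was not used in the placement. On mm10, CBS4 was placed at chr2:74691779, within the span of Hoxd10, the posterior Hox gene involved in lumbar and hindlimb patterning. The CTCF summits of the 10 libraries with CBS4 intact lay between 74691724 and 74691852, with a median of 74691776. This is 115 bp upstream of 74691891, the Hoxd10 start on which its RefSeq promoter window is set. The annotated span of Hoxd10 begins further upstream, since it also holds CBS5. CBS5, the site left intact on its centromeric side, was 5282 bp away at 74686497, where the spans of Hoxd10 and Hoxd11 overlap, and CBS3 was 2458 bp away on the telomeric side at 74694237.

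The RefSeq promoter window of Hoxd10 (GRCm38.p6, the assembly of mm10) holds these summits and is shown because it is the stretch that lost both proteins; capitals mark the 129 bases from the lowest to the highest CTCF summit. The window of Hoxd3os1, an RNA gene antisense to Hoxd3, is set beside it because it holds a CTCF peak that was found in all 4 libraries although CBS1, at 74715933, is mutated in all 4; capitals there mark the 61 bases from the lowest to the highest CTCF summit of the 4 libraries.
Hoxd10, chr2:74691641-74691940, plus strand: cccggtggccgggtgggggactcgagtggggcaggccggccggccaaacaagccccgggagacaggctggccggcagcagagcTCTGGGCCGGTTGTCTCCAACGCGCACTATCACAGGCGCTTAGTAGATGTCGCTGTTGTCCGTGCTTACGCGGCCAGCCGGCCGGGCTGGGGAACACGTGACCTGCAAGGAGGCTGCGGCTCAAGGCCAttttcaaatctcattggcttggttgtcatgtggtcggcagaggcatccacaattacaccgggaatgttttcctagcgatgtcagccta
Hoxd3os1, chr2:74716081-74716380, minus strand: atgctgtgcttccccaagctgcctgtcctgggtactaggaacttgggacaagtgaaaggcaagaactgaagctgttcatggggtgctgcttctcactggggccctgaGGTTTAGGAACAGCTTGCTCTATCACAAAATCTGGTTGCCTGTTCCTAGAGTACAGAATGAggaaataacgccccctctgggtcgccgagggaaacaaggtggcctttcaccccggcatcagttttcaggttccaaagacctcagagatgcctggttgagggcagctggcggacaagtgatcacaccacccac
The core of the CTCF motif was searched on both strands as CCA, any 2 bases, AG, any 2 bases and GGC. No exact match lay in either window: the closest 12 bases differed at 2 of the 8 fixed letters in the Hoxd10 window and at 1 in the Hoxd3os1 window. Of 32817 promoter windows of 300 bp, 2.43% held an exact match and 30.6% a match with at most 1 difference. The WT sequence is shown, and the mutated bases of the alleles were not analysed here.

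The authors called peaks in each library separately, and without read counts in these lists the sequencing depth behind each one is unknown. The CTCF lists held 50445 and 55829 entries in Del(CBS1-4), against 72166 and 39938 in Del(CBS1-3). The RAD21 lists held 37031 and 41097 entries in Del(CBS1-4), against 34325 and 25513 in Del(CBS1-3), so both Del(CBS1-4) lists were the longer ones. Peaks were also wider in Del(CBS1-4), with a median of 627 and 635 bp against 577 and 545 bp for CTCF, and 516 and 501 bp against 466 and 466 bp for RAD21. The Del(CBS1-3) replicate 2 lists were the shortest for both antibodies, and every count of present and absent peaks below moves with these lengths. With 2 libraries against 2, no exact test can give a 2-sided p below 0.3333. By chance alone 2 pairs of values fail to overlap at that same rate, and the share of all sites without overlap was not counted.

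At CBS4, CTCF and RAD21 peaks were absent from both Del(CBS1-4) libraries and present in both Del(CBS1-3) libraries. CTCF had no peak in Del(CBS1-4) replicate 1 or 2, against a fold enrichment at the summit of 10.22 (−log10 q of 98.4) in Del(CBS1-3) replicate 1 and 5.14 (−log10 q of 19.8) in replicate 2. RAD21 likewise had no peak in either Del(CBS1-4) library, against a fold enrichment of 13.14 (−log10 q of 167.1) in Del(CBS1-3) replicate 1 and 11.12 (−log10 q of 62.1) in replicate 2. The groups did not overlap for either antibody.

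Because the lists were called separately, fold enrichments were also expressed as percentiles, with 0 for no peak, among 30976 CTCF and 12932 RAD21 sites that are common to all genotypes. CTCF at CBS4 stood at 0 in both Del(CBS1-4) libraries, against 53.2 and 31.6 in Del(CBS1-3). RAD21 at CBS4 stood at 0 in both Del(CBS1-4) libraries, against 91.0 and 88.8 in Del(CBS1-3). The RAD21 peak missing from Del(CBS1-4) thus ranked high among the common RAD21 sites, and the CTCF peak in the middle of the common CTCF sites. These are different sets of sites and not the whole lists, so the percentiles of the antibodies are not on the same scale. The same 2 absences held when a summit had to lie within 100 bp, when any peak base within 250 bp counted, and when only peaks with a −log10 q of at least 10 were used. In the other libraries, CTCF and RAD21 at CBS4 were absent from both Del(CBS1-5) libraries, while in WT the percentile ranged from 0.5 to 13.9 for CTCF and from 16.0 to 56.9 for RAD21.

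**Figure D1:**
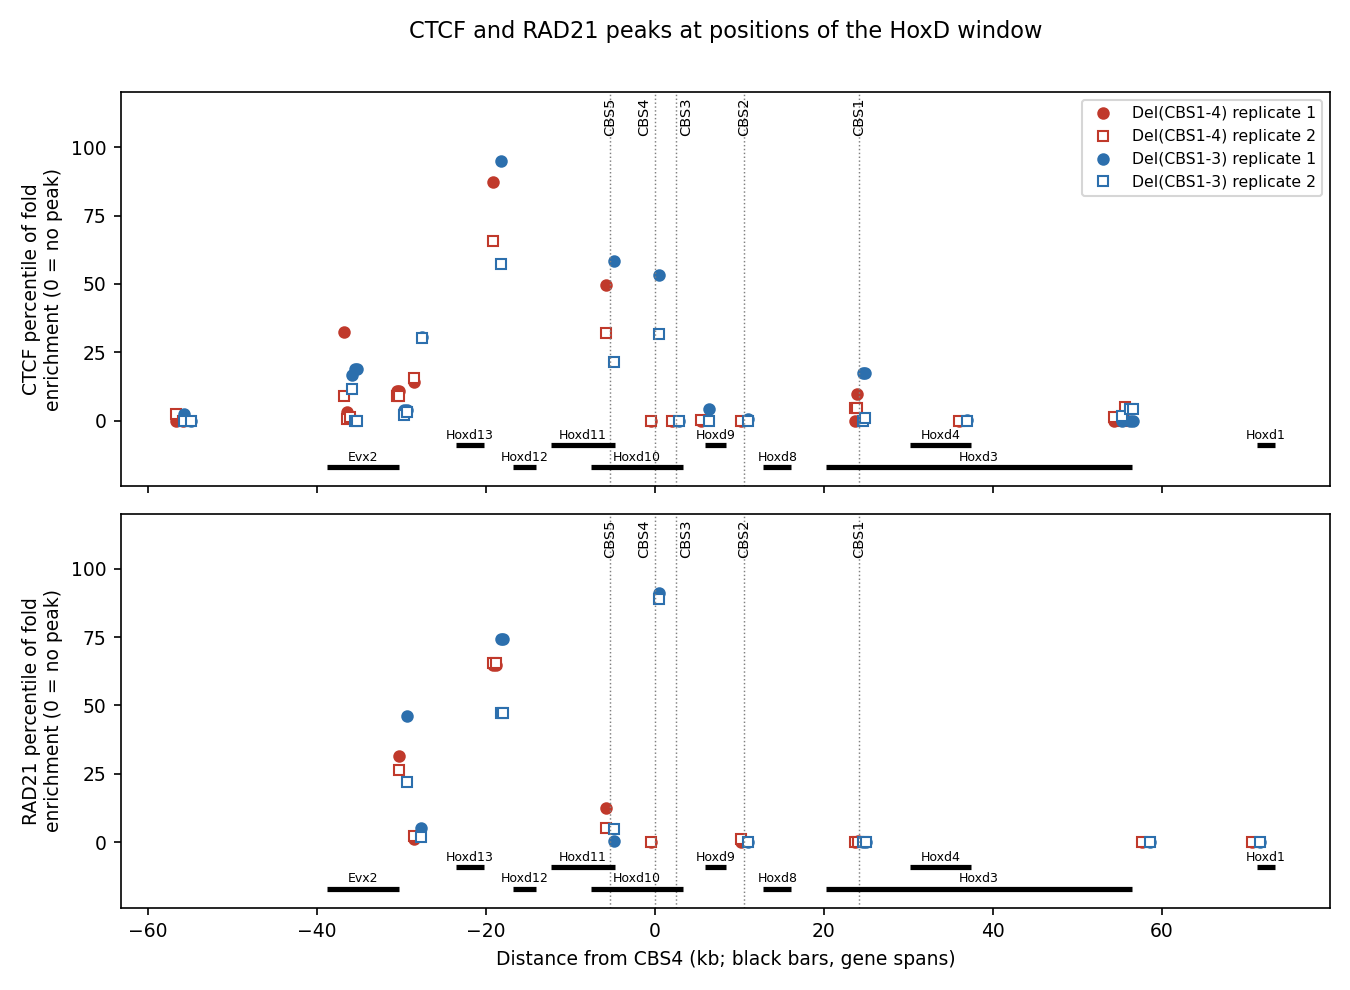
Percentile of fold enrichment (y axis, 0 for no peak) of CTCF (top) and RAD21 (bottom) at each position of the HoxD window, against distance from CBS4 in kb (x axis), for Del(CBS1-4) (red) and Del(CBS1-3) (blue) replicates, drawn side by side with a small horizontal offset; black bars are gene spans and dotted lines the 5 named CTCF sites. At CBS4 both red points lie at 0, against blue points at 53.2 and 31.6 for CTCF and at 91.0 and 88.8 for RAD21.

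At CBS1, CBS2 and CBS3, mutated in both groups, little was left to differ. CBS3 had no CTCF peak in any of the 4 libraries. At CBS2 CTCF was absent from both Del(CBS1-4) libraries and weak in Del(CBS1-3) replicate 1 alone, at a fold enrichment of 3.46, while RAD21 reached 3.80 in Del(CBS1-4) replicate 2 and 2.85 in Del(CBS1-3) replicate 1. At CBS1 no RAD21 peak covered the position in any of the 4 libraries. Peaks that covered CBS1 for CTCF, 1 in each group, had their summits at least 280 bp away, at the retained position inside the Hoxd3os1 window shown above.

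CBS5, the only numbered site intact in both groups, kept its CTCF peak. CTCF there had a fold enrichment of 7.37 and 6.10 in Del(CBS1-4), against 10.66 and 4.54 in Del(CBS1-3), and a percentile of 49.5 and 32.1 against 58.2 and 21.4, so both Del(CBS1-4) values lay between those of Del(CBS1-3). RAD21 at CBS5 had a fold enrichment of 6.07 and 5.01 in Del(CBS1-4), against 3.84 and 4.46 in Del(CBS1-3). Both Del(CBS1-4) values were the higher ones, and the −log10 q was 20.5 and 16.8 in Del(CBS1-4) against 9.0 and 7.2 in Del(CBS1-3). The RAD21 percentile of 8.8 ± 5.2 in Del(CBS1-4) against 2.7 ± 3.0 in Del(CBS1-3) (SD, n = 2 each) was low among the common sites in both groups. Against the whole lists, both Del(CBS1-4) fold enrichments lay above their lists' medians of 5.08 and 4.80. Both Del(CBS1-3) values lay below theirs, 5.24 and 5.77. The medians of these 4 lists fell as the lists grew longer, so this comparison moves with list length. In limma, fitted to ranks turned into normal scores over the 22125 RAD21 sites of the 4 libraries, the RAD21 difference at CBS5 was 0.55 ± 0.45 (SE) score units with an adjusted p of 0.816, and for CTCF it was 0.05 ± 0.38 with an adjusted p of 0.996. With only peaks of a −log10 q of at least 10, CBS5 counted as a RAD21 site gained in Del(CBS1-4), since it was then in both Del(CBS1-4) libraries and neither Del(CBS1-3) library. RAD21 at CBS5 was found in no Del(CBS1-5) library and in 2 of 4 WT libraries, at a percentile of at most 1.7 in WT. It was also found in both Del(CBS1-2) libraries, in which CBS4 is intact, with a fold enrichment of 5.47 and 4.64 (percentiles 6.2 and 1.5), and 5.47 is above the 5.01 of Del(CBS1-4) replicate 2.

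**Figure D2:**
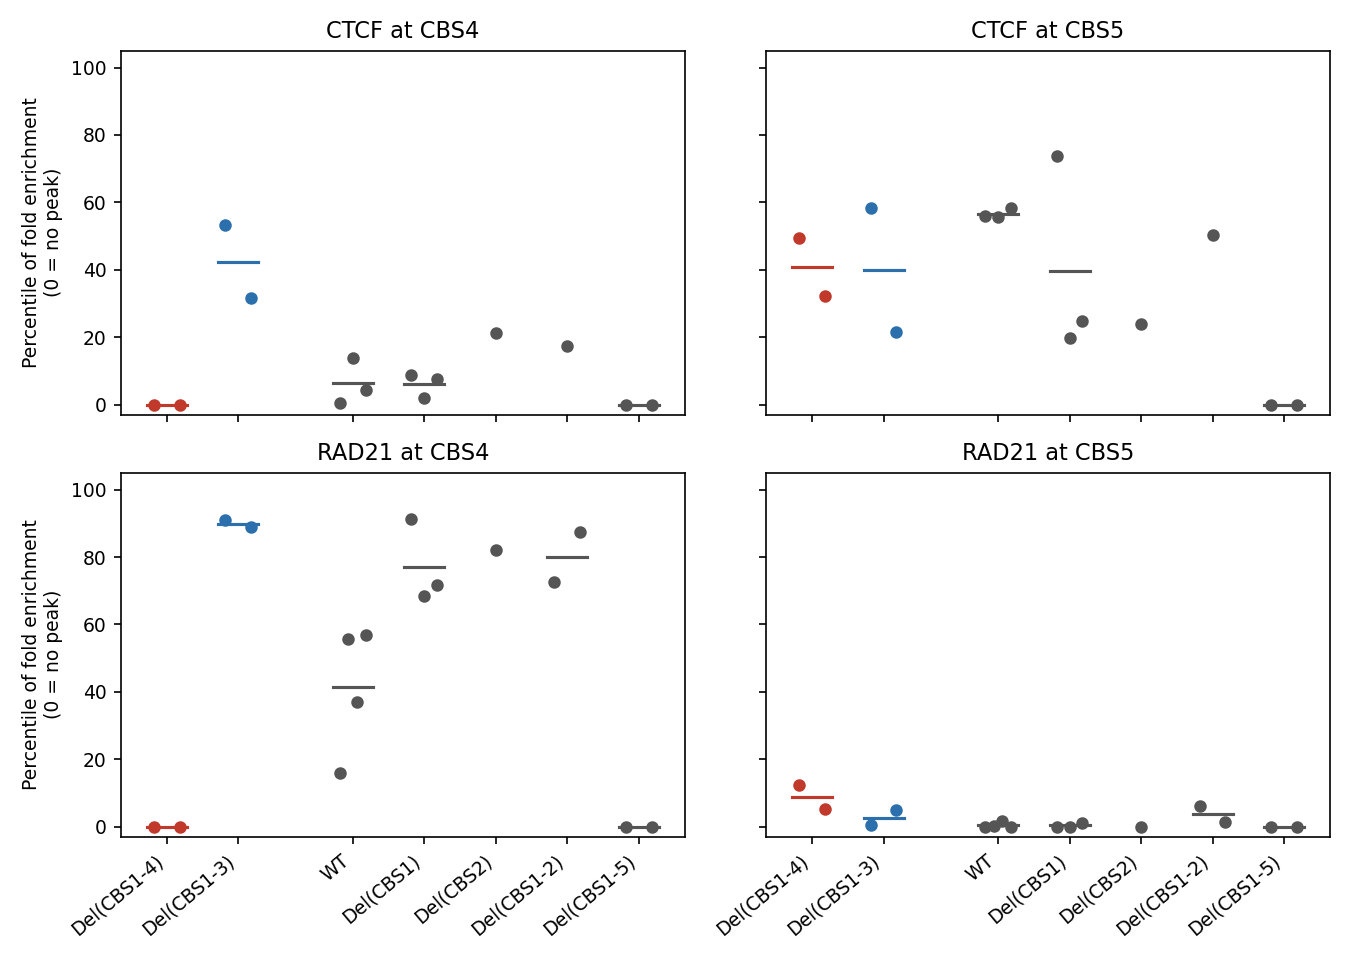
Percentile of fold enrichment (y axis, 0 for no peak) of CTCF (top) and RAD21 (bottom) at CBS4 (left) and CBS5 (right) in every library by genotype (x axis); points are libraries and lines are means of genotypes with 2 or more. Both Del(CBS1-4) points lie at 0 at CBS4, and at CBS5 the RAD21 points of Del(CBS1-4) are 12.4 and 5.1 against 0.6 and 4.8 in Del(CBS1-3).

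Outside the numbered sites, the posterior part of the HoxD window kept its peaks. The position between Hoxd13 and Hoxd12, the 2 genes at the 5′ end of the cluster, carried the highest CTCF fold enrichment of the window in both groups, 10.75 and 8.53 in Del(CBS1-4) against 15.16 and 6.76 in Del(CBS1-3). Its CTCF percentile was 76.5 ± 15.3 in Del(CBS1-4) and 76.1 ± 26.4 in Del(CBS1-3) (SD, n = 2 each). RAD21 there had a fold enrichment of 9.87 and 9.89 in Del(CBS1-4), against 11.15 and 7.66 in Del(CBS1-3), so the Del(CBS1-4) values lay between those of Del(CBS1-3). In the fit of the 4 libraries the difference was −0.13 ± 0.48 (SE, adjusted p = 0.991) for CTCF and 0.06 ± 0.30 (adjusted p = 0.977) for RAD21 by limma. The fit also held a shoulder of this CTCF peak at 74673351, 1662 bp from Hoxd12, at percentiles of 87.3 and 16.5 in Del(CBS1-4) against 94.8 and 57.4 in Del(CBS1-3) (−0.76 ± 0.94, adjusted p = 0.976 in limma). The groups overlapped there, and the value of 16.5 alone came from a summit at the shoulder, the other 3 from the main summit at least 224 bp away.

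Beside Evx2, the homeobox gene that flanks the cluster, the peaks were lower in rank and mixed in direction. At 74663755, in Gm31790, CTCF had a fold enrichment of 4.69 and 4.86 in Del(CBS1-4), against 8.22 and 5.08 in Del(CBS1-3), and both percentiles were lower in Del(CBS1-4), 14.1 and 15.7 against 30.5 and 30.4. The score difference of −0.47 ± 0.36 had an adjusted p of 0.956 in limma. At 74661969, also in Gm31790, CTCF ranked higher in Del(CBS1-4), at a mean percentile of 10.0 ± 1.5 against 3.6 ± 0.6 (SD, n = 2 each), with a score difference of 0.52 ± 0.38 (adjusted p = 0.955 in limma). RAD21 at this position stood at 31.4 and 26.5 in Del(CBS1-4), against 46.3 and 22.0 in Del(CBS1-3). At 74655517, within Evx2, CTCF stood at 32.4 and 9.1 in Del(CBS1-4) against 16.6 and 11.7 in Del(CBS1-3), and the groups overlapped. At 74655823, also within Evx2, it stood at 3.1 and 0.5 in Del(CBS1-4), against 18.8 and no peak in Del(CBS1-3). At 74656137 it stood at 1.2 in both Del(CBS1-4) libraries, against 18.8 and no peak in Del(CBS1-3). At 74635596 CTCF was found in 1 library of each group, at 2.6 in Del(CBS1-4) and 2.5 in Del(CBS1-3). In the anterior part, the position in the Hoxd3os1 window had a CTCF fold enrichment of 4.27 and 3.67 in Del(CBS1-4), against 6.92 and 2.84 in Del(CBS1-3). The other anterior CTCF positions outside the numbered sites, from Hoxd9 to Hoxd3, were weak, at percentiles of at most 4.9 in any of the 4 libraries.

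To see whether CBS4 stood out beyond HoxD, sites were taken from the Del(CBS1-3) pair genome-wide, and a site was called lost when neither Del(CBS1-4) library and both Del(CBS1-3) libraries had it. Of 39273 CTCF sites 930 were lost (2.37%), and of 23449 RAD21 sites 248 were lost (1.06%). In the HoxD window 1 of 9 CTCF sites and 1 of 5 RAD21 sites was lost, and both were CBS4. Most lost sites were weak: the median of their mean fold enrichments was 4.04 for CTCF and 3.88 for RAD21, while CBS4 had 7.68 for CTCF, the rank of 25 among the 930, and 12.13 for RAD21, the highest of the 248. The highest RAD21 value among the other lost sites was 10.14.

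The lost sites were then looked up in the libraries that the comparison had not used. CBS4 was the only one of the 930 CTCF sites that was found in all 8 other libraries with CBS4 intact and in neither Del(CBS1-5) library, in which CBS4 is mutated too. It was likewise the only one of the 248 RAD21 sites found in all 10 other libraries with CBS4 intact and in neither Del(CBS1-5) library. Among the other CTCF sites, 52 were in all 8, and of these 50 were also in both Del(CBS1-5) libraries and 2 in 1 of them. Among the other RAD21 sites none was in all 10; 174 were absent from both Del(CBS1-5) libraries, and these were found in at most 9 of the 10. Since the CTCF placement of CBS4 used these libraries, only the RAD21 side of this pattern is independent of the way CBS4 was found. The Del(CBS1-5) RAD21 lists held 26694 and 16627 entries, the second being the shortest RAD21 list of the series. Of all lost RAD21 sites 70.6% were absent from both, so absence from Del(CBS1-5) alone sets few sites apart.

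**Figure D3:**
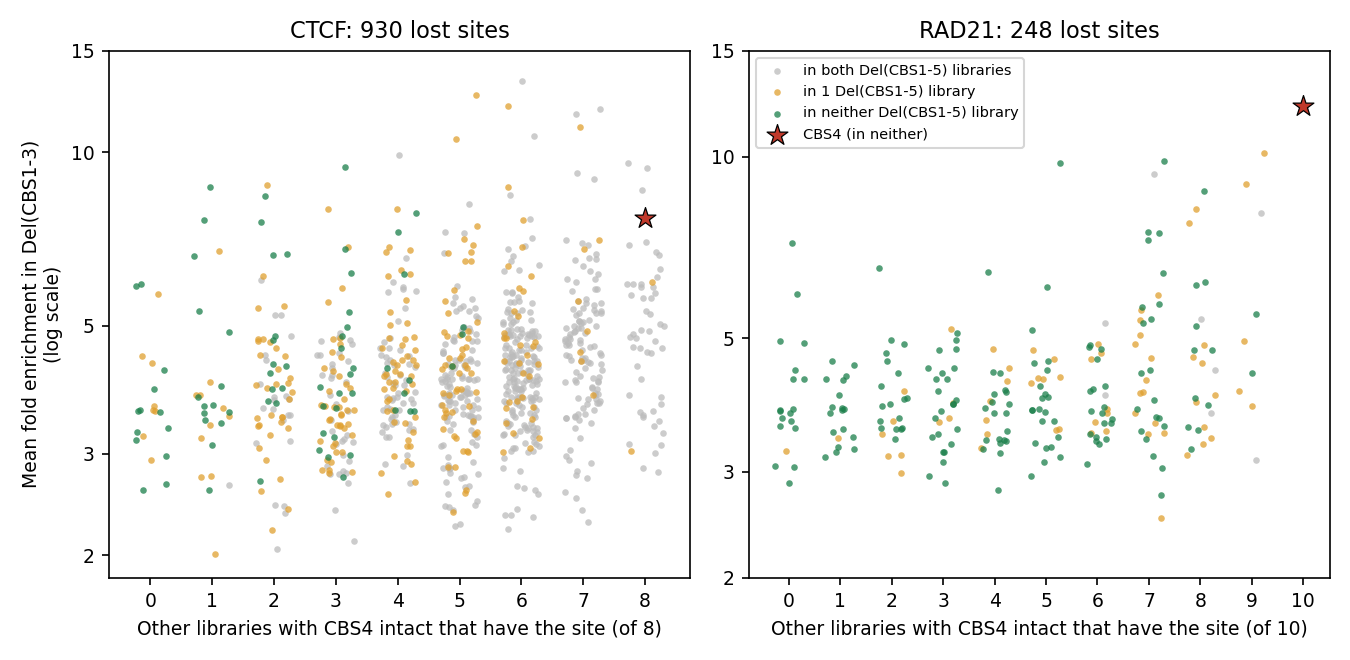
Mean fold enrichment in the 2 Del(CBS1-3) libraries (y axis, log scale) of every site lost in Del(CBS1-4), against the number of other libraries with CBS4 intact that have the site (x axis, jittered), for CTCF (left, 930 sites) and RAD21 (right, 248 sites), coloured by presence in the Del(CBS1-5) libraries. The star marks CBS4, at 8 of 8 libraries for CTCF and alone at 10 of 10 for RAD21 with a mean fold enrichment of 12.13.

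The 10 lost CTCF sites highest in mean fold enrichment lay on other chromosomes, and each was found in at least 1 Del(CBS1-5) library. Of the 24 lost CTCF sites above CBS4 in mean fold enrichment, 4 were in no Del(CBS1-5) library. The site in Skint11 on chromosome 4 (114173172) had no CTCF peak in Del(CBS1-4), against a fold enrichment of 14.54 and 12.03 in Del(CBS1-3), and was found in both Del(CBS1-5) libraries. The same was seen beside Gm13286 and in Gm13284 on chromosome 4, with 12.61 and 10.66 and with 13.88 and 9.87 in Del(CBS1-3). Sites near Gm45734 on chromosome 8 (15.18 and 9.95), near Ear10 on chromosome 14 (12.35 and 11.71) and in Gm31624 on chromosome 12 (10.30 and 11.84) were each found in 1 Del(CBS1-5) library. For RAD21 the strongest lost site after CBS4 was the same Gm31624 site (8.70 and 11.59), followed by a site in a tRNA gene, n-TIaat7, on chromosome 13 (9.84 and 9.81). The n-TIaat7 site failed the stricter match below, with a summit up to 481 bp from the site.

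These counts rested on the lists' lengths and on how a peak was matched. When a lost site had to have no peak base within 250 bp in both Del(CBS1-4) libraries and a summit within 100 bp in both Del(CBS1-3) libraries, 550 CTCF sites (1.55%) and 145 RAD21 sites (0.667%) were lost, CBS4 among both. Leaving out 1 library moved the CTCF count to 1639 without Del(CBS1-4) replicate 1 and 2121 without Del(CBS1-4) replicate 2. It was 1442 without Del(CBS1-3) replicate 1 and 23235 without Del(CBS1-3) replicate 2. The RAD21 count moved to 663, 703, 1109 and 4905 in the same order. Leaving out a library only removes a condition from the call, so CBS4 had to stay lost in these.

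In the other direction, a site was called gained when both Del(CBS1-4) libraries and neither Del(CBS1-3) library had it. Of 47215 CTCF sites 1410 were gained (2.99%), and of 31754 RAD21 sites 3998 were gained (12.6%). None of the 11 CTCF sites and none of the 4 RAD21 sites of the HoxD window was among them. The median of the mean fold enrichments was 3.88 for gained CTCF sites and 3.83 for gained RAD21 sites, and 403 and 572 of them were absent from every other library with CBS4 intact. Gained sites were also ranked by the lower −log10 q of their 2 Del(CBS1-4) libraries. The first CTCF site by this rank lay 2961 bp from Eri1, a histone mRNA exonuclease gene on chromosome 8. It had a fold enrichment of 9.09 and 7.77 in Del(CBS1-4) and no peak in Del(CBS1-3), and it was found in both Del(CBS1-5) and 2 of 3 WT libraries. The other 9 of the 10 gained CTCF sites highest in mean fold enrichment failed the stricter match below. For RAD21 the first site by the lower −log10 q lay 7492 bp from Gm9522 on chromosome 15, with 12.74 and 10.79 in Del(CBS1-4), and it was found in 3 of 4 WT libraries.

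The excess of gained RAD21 sites went with the longer Del(CBS1-4) lists, and the part of list length in it was not tested beyond this: with the same number of top peaks in all 4 lists, 989 RAD21 sites were gained (4.34%) and 618 lost (2.82%). For CTCF this turned the balance, to 847 gained and 1146 lost sites. By the stricter match 213 CTCF sites (0.528%) and 2213 RAD21 sites (7.86%) were gained. The RAD21 count was 12062 without Del(CBS1-4) replicate 1, 8273 without Del(CBS1-4) replicate 2 and 8847 without Del(CBS1-3) replicate 1, and the CTCF count was 5586, 3051 and 10484 in the same order.

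CTCF and RAD21 were lost together at 23 sites, where a lost RAD21 site coincided with a lost CTCF site. Of the 23, only CBS4 was in every WT library of both antibodies and in no Del(CBS1-5) library. The site in Skint11 was the other one in every WT library, and it was present in both Del(CBS1-5) libraries of each antibody. At least 1 Del(CBS1-5) library had a peak at 20 of the 23 sites.

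Sites present in every library were compared by rank, to ask whether occupancy of shared sites differed between the groups. With all genotypes in the fit, limma called 0 of 30976 CTCF sites (0.0%) and 0 of 12932 RAD21 sites (0.0%) at an adjusted p of 0.05. An unadjusted p under 0.05 was reached by 1912 CTCF and 818 RAD21 sites, and the smallest adjusted p was 0.404 for CTCF and 0.408 for RAD21. CTCF ranks taken from −log10 p gave 1 call instead, and leaving out Del(CBS1-3) replicate 1 gave 5.

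With only the 4 libraries in the fit, which also holds sites that other alleles lack, limma called 65 of 36928 CTCF sites (0.176%), with 6 higher (0.0162%) and 59 lower (0.16%) in Del(CBS1-4). It called 14 of 22125 RAD21 sites (0.0633%), with 2 higher (0.00904%) and 12 lower (0.0542%). None was in the HoxD window. At 63 of the 65 CTCF and 11 of the 14 RAD21 sites, the summit that gave the value lay more than 150 bp from the site in at least 1 library. In Asgr1, the site with the largest fall, the summits behind the values lay 0 and 160 bp from the site in Del(CBS1-4) (fold enrichment 1.98 and 2.38), against 451 and 427 bp in Del(CBS1-3) (14.37 and 10.21), so different summits were set against each other. With only sites that had a summit within 150 bp in every library, 2 of 33383 CTCF sites (0.00599%) and 2 of 21010 RAD21 sites (0.00952%) were called, all 4 lower in Del(CBS1-4). The count of the first fit also moved with single libraries, for CTCF to 213 without Del(CBS1-4) replicate 1, 216 without Del(CBS1-4) replicate 2, 235 without Del(CBS1-3) replicate 1 and 29 without Del(CBS1-3) replicate 2, and for RAD21 to 87, 46 and 44 without the first 3.

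The 4 calls with matched summits were at 3 places, and 1 place was called for both antibodies. It lay 308 bp from Gm7688 on chromosome 8, at 69328765. CTCF there had a fold enrichment of 6.28 and 4.79 in Del(CBS1-4), against 16.20 and 10.42 in Del(CBS1-3), a score difference of −2.36 ± 0.33 (SE, adjusted p = 0.011 in the limma fit of the 4 libraries and 0.00637 with matched summits). RAD21 had 6.10 and 7.03 in Del(CBS1-4), against 13.87 and 14.46 in Del(CBS1-3), a difference of −2.38 ± 0.32 (adjusted p = 0.00255 in limma, 0.00187 with matched summits). The position varied across the other genotypes: CTCF ranged from 5.83 to 17.19 in Del(CBS1-5), was absent from 1 of 3 Del(CBS1) libraries and ranged from 9.75 to 17.39 in WT.

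The second CTCF call lay 236 bp from Acvrl1 on chromosome 15 (101145572), the gene of an endothelial receptor of the TGF-beta family. CTCF had a fold enrichment of 6.17 and 4.57 in Del(CBS1-4), against 16.65 and 11.59 in Del(CBS1-3), a difference of −2.70 ± 0.33 (adjusted p = 0.00466 in limma, 0.00168 with matched summits). CTCF at Acvrl1 was 3.56 to 11.90 in Del(CBS1) and 6.21 to 16.37 in WT, so the Del(CBS1-4) values lay within the range of genotypes with CBS4 intact. RAD21 there was 3.24 in 1 Del(CBS1-4) library and absent from the other, against 5.05 and 4.86 in Del(CBS1-3). The second RAD21 call lay 284 bp from Cep85, a centrosomal protein gene on chromosome 4 (134187369), with 6.61 and 5.51 in Del(CBS1-4) against 11.82 and 12.13 in Del(CBS1-3), a difference of −1.92 ± 0.31 (adjusted p = 0.0173 in limma, 0.0168 with matched summits). RAD21 at Cep85 had 4.30 and 6.82 in Del(CBS1-2), which has CBS4 intact, and ranged from 6.94 to 15.23 in WT. CTCF at Cep85 was lower in both Del(CBS1-4) libraries as well, 6.95 and 7.26 against 13.68 and 11.44. A RAD21 site in Tmem117 on chromosome 15 was higher in Del(CBS1-4), with 12.85 and 13.01 against 7.80 and 6.25. Its difference of 1.67 ± 0.29 passed in the first fit (adjusted p = 0.0315 in limma) but not with matched summits (adjusted p = 0.0546), and WT ranged from 6.43 to 12.68.

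These calls depended on 1 library and on how limma estimated the spread. Without Del(CBS1-3) replicate 2 the adjusted p by limma was 0.0806 at Acvrl1, 0.093 for CTCF and 0.0639 for RAD21 at Gm7688, 0.255 at Cep85 and 0.249 at Tmem117, with every difference in its first direction. Without Del(CBS1-3) replicate 1 it was 0.056 for CTCF at Gm7688 and 0.0729 at Tmem117, and with limma's trend and robust options off none of the 5 passed (adjusted p of 0.0514 to 0.406).

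**Figure D4:**
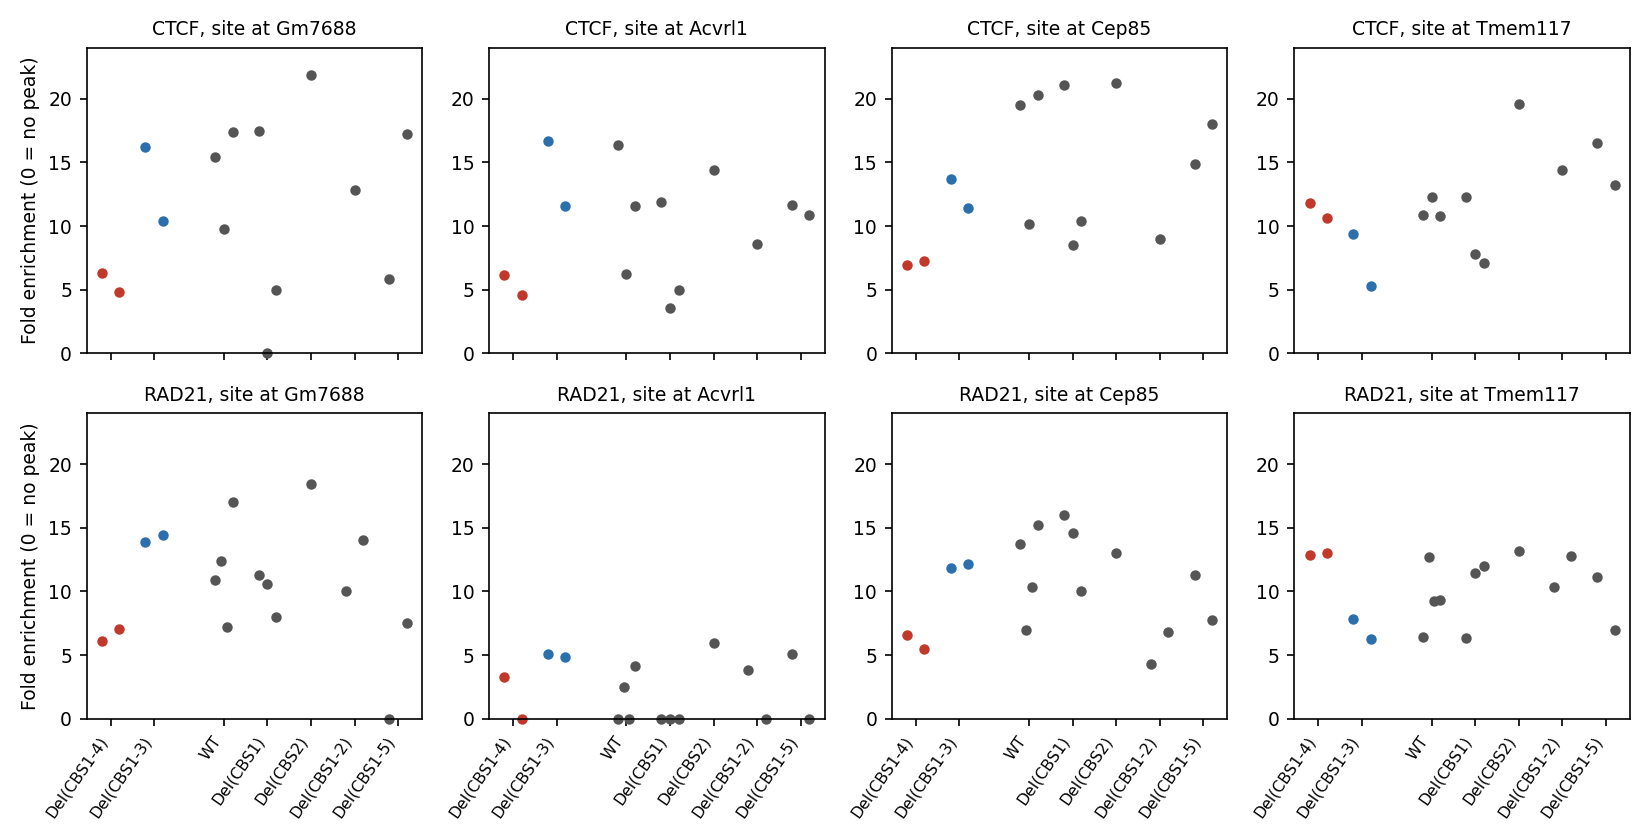
Fold enrichment (y axis, 0 for no peak) of CTCF (top) and RAD21 (bottom) in every library by genotype (x axis) at the 4 places with a called site whose summits lay within 150 bp in every library, at Acvrl1, Gm7688, Cep85 and Tmem117. Del(CBS1-4) points (red) lie below Del(CBS1-3) points (blue) at the first 3, for example 6.10 and 7.03 against 13.87 and 14.46 for RAD21 at Gm7688, and above them at Tmem117.

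Lists of developmental genes were read from the fit with all genotypes, taking sites within 5 kb of a member, against a median difference over all sites of −0.01 for each antibody. No site of any list passed, as none did genome-wide. The other Hox clusters, paralogues of the HoxD genes, had 14 CTCF sites, 4 higher and 10 lower in Del(CBS1-4) with a median of −0.41, and 8 RAD21 sites, 4 higher and 4 lower with a median of −0.02. Imprinted domains, whose control regions are classic CTCF targets, had 31 CTCF sites (19 higher, median 0.11) and 20 RAD21 sites (12 higher, median 0.18). Neural tube regulators had medians of −0.17 over 14 CTCF sites and −0.16 over 5 RAD21 sites, and somite and muscle regulators −0.08 over 18 and −0.41 over 5.

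Lists of other tissues in the trunk had medians of similar size, and none of their sites passed. Limb and lateral plate genes had a CTCF median of −0.23 over 20 sites, and the site near Gdf5, a joint-forming BMP ligand, had a CTCF fold enrichment of 9.25 and 8.30 in Del(CBS1-4) against 14.97 and 9.02 in Del(CBS1-3) (−0.84 ± 0.33, adjusted p = 0.751 in limma). Blood genes had a CTCF median of −0.17 over 20 sites and a RAD21 median of −0.34 over 8, and RAD21 near Spi1, the myeloid factor PU.1, was 11.01 and 11.52 in Del(CBS1-4) against 14.63 and 13.74 in Del(CBS1-3) (−1.10 ± 0.37, adjusted p = 0.700 in limma). Heart genes had medians of 0.05 for CTCF and −0.11 for RAD21, and endoderm and liver genes −0.02 and 0.10. The CTCF site near Afp, the fetal serum protein of yolk sac and liver, was 13.77 and 13.55 in Del(CBS1-4) against 14.08 and 9.13 in Del(CBS1-3) (1.00 ± 0.37, adjusted p = 0.719 in limma).

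In the landscapes that flank HoxD, RAD21 was found at every WT reference site in all 4 libraries, 4 of 4 on the centromeric side and 8 of 8 on the telomeric side. CTCF was found at 11 and 13 of 14 centromeric sites in Del(CBS1-4), against 14 and 8 in Del(CBS1-3), and at 18 and 17 of 21 telomeric sites in Del(CBS1-4), against 21 and 14 in Del(CBS1-3). The numbers overlapped between the groups, and the longest and the shortest list, both of Del(CBS1-3), had the most and the fewest on each side. In rank, the 4 centromeric RAD21 sites were all higher in Del(CBS1-4), by 0.02 to 0.59 score units with a median of 0.31, and none passed in limma. On the telomeric side 4 of 7 RAD21 sites were higher with a median of 0.17. The largest RAD21 difference there was in 2600014E21Rik, where RAD21 had a fold enrichment of 10.03 and 12.06 in Del(CBS1-4) against 8.44 and 7.27 in Del(CBS1-3) (1.05 ± 0.41, adjusted p = 0.727 in limma). For CTCF 3 of 8 centromeric and 9 of 13 telomeric sites were higher, with medians of −0.09 and 0.06.

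The share of RAD21 peak intervals that overlapped a CTCF site of WT, taken as 150 bp to each side of a summit found in all WT libraries, was asked last. In Del(CBS1-4) 28227 of 34539 and 28531 of 38057 intervals overlapped one, against 27012 of 33126 and 22770 of 24495 in Del(CBS1-3). The mean shares were 78.3% and 87.3%, a difference of −8.9 percentage points before rounding (exact permutation p = 0.6667, 2-sided). The high share was that of the shortest list, Del(CBS1-3) replicate 2, without which the difference was −3.2 percentage points. With the same number of top RAD21 peaks in every list the means were 93.0% in Del(CBS1-4) and 92.8% in Del(CBS1-3).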

How the data were processed

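CTCF and RAD21 ChIPmentation libraries of E10.5 mouse trunk were used (14 CTCF and 16 RAD21 libraries). The submitters' processing notes name the build mm10, MACS2 2.1.1.20160309 and bedtools 2.27.1, as well as Picard 2.19.0, SAMtools 1.9, cutadapt 1.16 and Bowtie2 2.3.5. For each library the authors deposited 1 MACS2 narrowPeak list with fold enrichment, −log10 p, −log10 q and a score, which was not used.

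Summits within 150 bp were linked into sites, and a peak had to cover the median summit to count. Fold enrichments were ranked within each library, turned into normal scores and tested with limma 3.58.1 (R 4.3.3, trend and robust) with Benjamini-Hochberg adjustment over all sites, at 0.05. Lost and gained sites are counts with no test. Sites to name were drawn mainly from all HoxD window positions (20000 bp beyond Evx2 and Hoxd1) and the 10 lost and 10 gained sites highest in mean fold enrichment. They were also drawn from the 10 largest calls a fit and direction, and up to 4 sites a list within 5000 bp of members of the 9 gene lists. The text gives only part of these sites. Gene names came from RefSeq. Members and lists were chosen with earlier results of these data known. Same-numbered libraries did not deviate together (correlation −0.017 for CTCF and 0.038 for RAD21), so numbers were not treated as pairs. The linking and look-up of peaks and the limma fit were tested on simulated data, and the other steps were not. The simulated peaks had a single summit each, so they could not show different summits of a peak being set against each other. Alternatives varied the match, the rank, the peak threshold and the libraries; requiring a summit within 150 bp, and the stricter match, were added after seeing the data.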

Additional observations from a re-analysis of the deposited data

Results flagged for a closer look

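RAD21 at CBS5 in WT was found in 2 of 4 libraries, and 1 of them stood apart from the rest, with a percentile of 1.7 against 0.0 to 0.1 in the others. The gap was 0.941 of the whole range. Libraries without a peak were set to 0, and the other values lie low among the RAD21 sites common to all genotypes. In all, 2 groups were examined in this way. The usual rate of about 1 in 20 picked out by chance is for normally distributed values, so it does not hold with values set to 0.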

How the results depend on the processing

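CBS4 was lost for both antibodies under every match and peak threshold tried, while counts of sites moved with these and with each left-out library. Leaving out a library only removes a condition from the call, so it could not have changed the loss of CBS4. With a summit required within 100 bp, 2718 CTCF sites were gained (2 in the HoxD window), and 1415 CTCF and 663 RAD21 sites were lost. Any peak base within 250 bp left 519 gained and 775 lost CTCF sites, here with more lost than gained. Peaks with a −log10 q of at least 10 left 71 CTCF sites gained and 184 lost, and 957 RAD21 sites gained (1 in the HoxD window) and 48 lost. The same number of top peaks gave 847 gained and 1146 lost CTCF sites, the reverse of the first balance, and 989 gained and 618 lost RAD21 sites. In the HoxD window this setting lost 2 CTCF sites, CBS4 and a position at 74697982. The position at 74697982 was also lost without Del(CBS1-4) replicate 2. The stricter match gave 213 and 2213 gained and 550 and 145 lost sites for CTCF and RAD21. With 1 library left out, 1602 to 10484 CTCF sites were gained and 1442 to 23235 lost, and 4906 to 12062 RAD21 sites were gained and 663 to 4905 lost. In the HoxD window these runs lost 1 to 4 CTCF and 1 or 2 RAD21 sites, and gained 0 to 3 CTCF and 0 to 2 RAD21 sites.

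For limma with all genotypes, ranks of −log10 p gave 1 CTCF call, and leaving out 1 library gave 0 to 5. With the 4 libraries, trend and robust options off gave 36 CTCF and 2 RAD21 calls, leaving out the weakest 25% of sites gave 38 CTCF calls, ranks of −log10 p gave 22 RAD21 calls, and matched summits gave 2 and 2. Leaving out 1 library gave 29 to 235 CTCF and 14 to 87 RAD21 calls. The replicate block gave 1 CTCF call with all genotypes, and 166 CTCF and 10 RAD21 calls with the 4 libraries. The numbers do not pair the libraries.

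Uncalled HoxD differences changed sign as follows. Ranks of −log10 p gave −0.04 at Evx2, −0.05 for CTCF at CBS5 and −0.03 for RAD21 near Hoxd13, and log2 fold enrichment gave 0.02 for CTCF near Hoxd13 and −0.06 at Hoxd3. Leaving out 1 library gave, for CTCF, −0.21 to 0.58 at Evx2, −0.81 to 0.55 near Hoxd13, −1.74 to 0.22 at Hoxd12, −0.39 to 0.48 at CBS5 and −0.46 to 0.76 at Hoxd3. For RAD21 it gave −0.39 to 0.13 in Gm31790 and −0.22 to 0.35 near Hoxd13. The RAD21 share differed by 0.2 points with the same number of top peaks and by −14.6 to −3.2 points with 1 library left out. The cause was not tested. With no read counts, an absent peak says only that none was called. The search for the motif around every site was not run.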

Other observations

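Lost sites were crowded on chromosome 8. Of the 23 sites that lost CTCF and RAD21 together in Del(CBS1-4), 5 lay between 68557078 and 72033103 on chromosome 8. In the bin from 70000001 to 75000000, 12 of 133 CTCF sites (9.02%) and 9 of 83 RAD21 sites (10.8%) were lost, against 2.37% and 1.06% of all sites; this bin was chosen for its counts, as the one with the most lost sites of each antibody. The Gm7688 position at 69328765, the only place called lower for both antibodies, lies in the same stretch. The labels give no genotype of the embryos outside HoxD, so a difference between the embryos in this stretch and the CBS4 mutation cannot be told apart.

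At several of these sites presence also varied among genotypes with CBS4 intact. The RAD21 site near Gm45734 at 72033103 was in none of 3 Del(CBS1) libraries, in both Del(CBS1-2) libraries and in 2 of 4 WT libraries. The RAD21 site in Csgalnact1 at 68557078 had the same pattern, in none of 3 Del(CBS1), both Del(CBS1-2) and 2 of 4 WT libraries. Both were absent from both Del(CBS1-5) RAD21 libraries, as were 70.6% of all lost RAD21 sites. CTCF at the same places was found in 1 Del(CBS1-5) library near Gm45734 and in 2 in Csgalnact1.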
